A study of Mus musculus with 14 samples.

Results

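The genes described here are 42 mouse genes of the interferon response and of antigen presentation, out of 54446 genes in a count table of heart nuclei. They were chosen by name, through the Ensembl IDs of the table on genome build GRCm38 with the annotation GENCODE vM21, and all 42 passed the filter on low counts that left 17987 genes. In 1 of the 5 untreated libraries, Control 2, 38 of the 42 genes stood at least 2-fold above their median over the 14 libraries. The genes were chosen with this library already known to be high in them. With edgeR's test, the direction of the genes against untreated hearts changed with that library. The median log2 fold change of the 42 genes in YAP5SA against Control was -0.65 over the 14 libraries and 1.60 without Controls 1 and 2. Control 2 is labelled untreated and stood apart from the other Controls in these genes; whether the library or its label is sound was not tested.

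RNA came from hearts of wild-type ICR mice, an outbred strain, after nuclei carrying PCM1, a protein of cardiomyocyte nuclei, had been enriched. Adeno-associated virus of serotype AAV9 was given into the peritoneum on postnatal day 7 at 1E11 genome copies per virus, and hearts were collected 5 days later, on postnatal day 12. The virus carried human MEF2A, which is a transcription factor of muscle, or the YAP mutant YAP5SA, which the Hippo pathway cannot switch off, each behind the cardiac troponin T promoter, which is active in cardiomyocytes. Mice without virus gave 5 libraries (Control), MEF2A virus 4, YAP5SA virus 3, and both viruses together 2 (named YAP5SA_MEF2A). Replicates 1 and 2 of every group formed batch 1, while batch 2 consisted of Controls 3 to 5, MEF2A 3 and 4 and YAP5SA 3. As no group received virus without a transgene, the virus particle and its transgene cannot be told apart. Whether every library came from its own animal is not stated in the labels, and p-values therefore refer to variation among libraries, some of which may be technical.

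Total counts ran from 16171068 to 24027622 per library. Mitochondrially encoded genes took 60.7% of the counts in Control 1 and 67.5% in Control 2, and 3.80% to 32.2% in the other 12 libraries, which left 6347527 and 5554085 counts for all other genes in those 2 libraries and at least 12824240 in the others. Values below are CPM, counts scaled to the library total after TMM, a method that equalises libraries over most genes. Over 8 cardiomyocyte markers the summed level was 26426.5 to 81554.5 CPM, lowest in YAP5SA 3, and over 12 macrophage markers it was 66.1 to 1054 CPM, highest in YAP5SA 3. In RNA of a whole nuclear preparation, fewer nuclei of a type and less RNA per nucleus cannot be told apart.

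Interferons are secreted proteins through which cells warn each other of viruses. Type I interferon acts through the kinases JAK1 and TYK2 on a complex that includes STAT2 and IRF9 and binds the interferon-stimulated response element (ISRE), whereas interferon gamma acts on the gamma-activated site (GAS). The induced genes encode sensors of viral nucleic acid, proteins that block viral replication, guanosine triphosphatases (GTPases) that attack pathogen vacuoles, and the machinery that presents peptides on MHC class I to CD8 T cells. Cardiomyocytes carry low MHC class I in the resting heart, and leukocytes carry much more. The 42 genes were placed in 7 roles: 5 in interferon signalling and its feedback, 4 sensors, 15 antiviral effectors and other interferon-stimulated genes, 6 inducible GTPases, 9 in MHC class I and peptide loading, 2 complement genes and 1 chemokine.

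Raised levels were found in 5 of the 14 libraries. In Control 2, 38 of 42 genes (90.5%) stood at least 2-fold above their median over the 14 libraries, where 11.4% of all tested genes did. The exceptions were Irf9, Eif2ak2, Ifi35 and C3. In YAP5SA 3 it was 24 genes (20.6% of all genes), in YAP5SA_MEF2A 2 it was 23 (9.46%), in MEF2A 3 it was 14 (7.74%) and in MEF2A 4 it was 12 (7.41%). In the other 9 libraries it was 0 to 2 genes. These were 2 in Control 1 (8.66% of all genes), 0 in Control 3 (9.08%), 1 in Control 4 (8.46%), 0 in Control 5 (8.33%), 0 in MEF2A 1 (4.52%), 0 in MEF2A 2 (5.78%), 1 in YAP5SA 1 (14.2%), 1 in YAP5SA 2 (6.55%) and 1 in YAP5SA_MEF2A 1 (9.33%). Each group with virus therefore held libraries at the level of Controls 1, 3, 4 and 5 and at least 1 library above it. The heat map of the 42 genes shows the 5 raised libraries as separate columns.

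**Figure D1:**
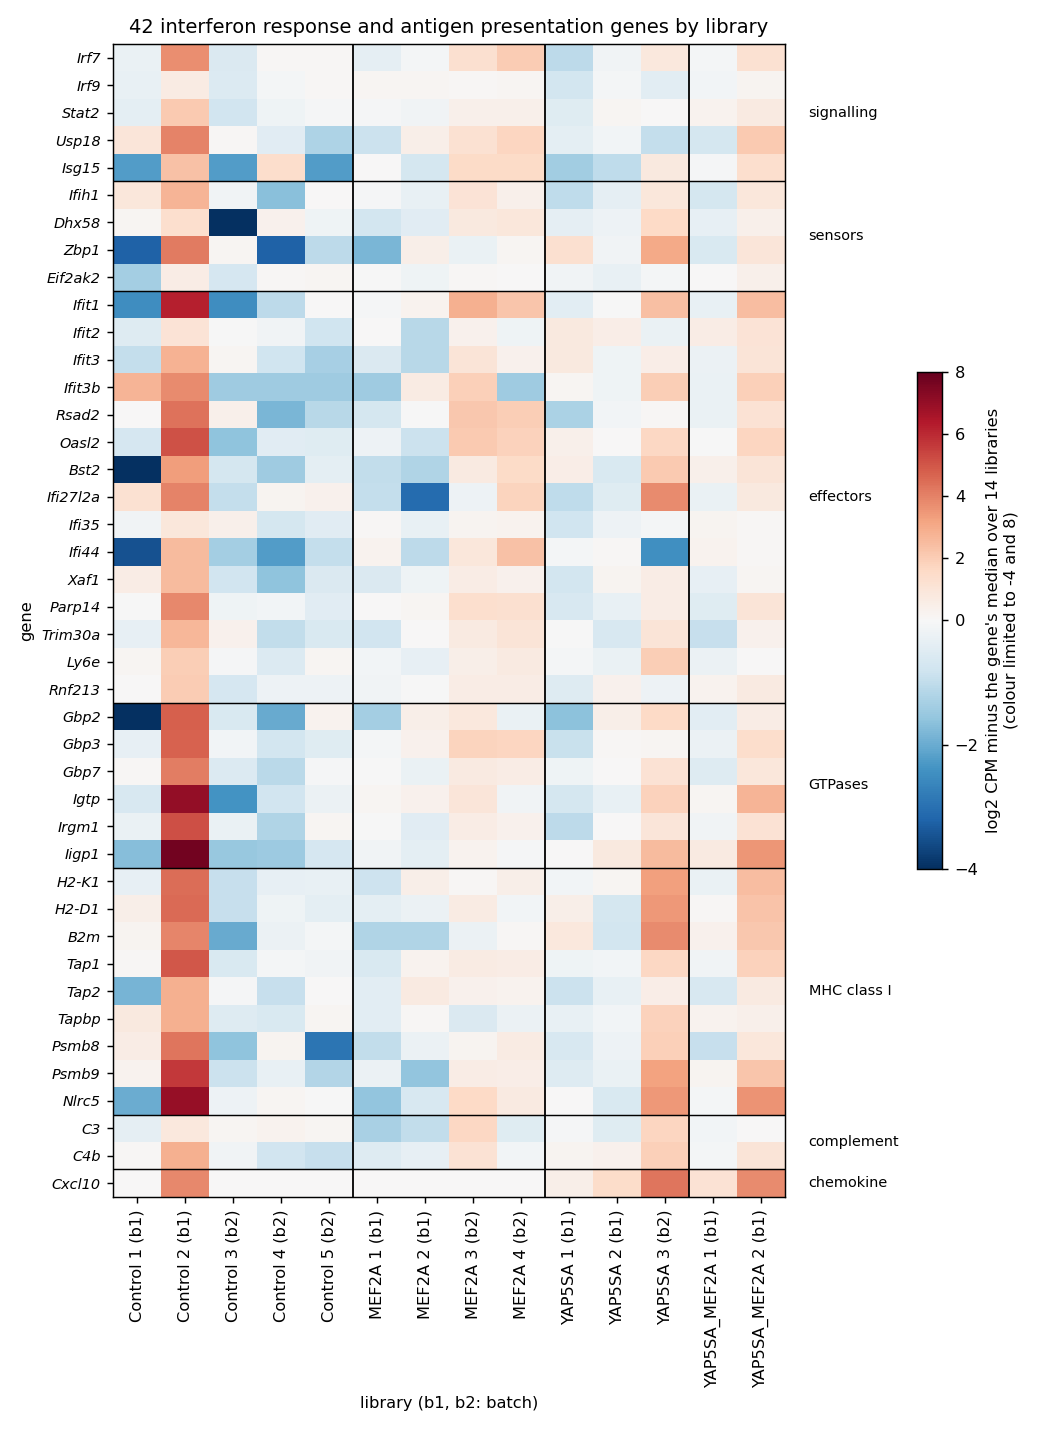
Log2 CPM of each of the 42 genes in each library, minus the median of that gene over the 14 libraries, with genes in rows by role and libraries in columns by group; b1 and b2 mark the batch and the colour scale is limited to -4 and 8. Control 2 is above the median in nearly every row, and YAP5SA 3, YAP5SA_MEF2A 2, MEF2A 3 and MEF2A 4 are above it in part of the rows.

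The raised libraries did not share all their genes. YAP5SA 3 and YAP5SA_MEF2A 2 had 14 raised genes in common, which was 58.3% of the first list and 60.9% of the second, among them Iigp1, Nlrc5, H2-K1, H2-D1, B2m, Tap1 and Psmb9. YAP5SA 3 and MEF2A 3 had 6 in common, 42.9% of the MEF2A 3 list. MEF2A 3 and YAP5SA_MEF2A 2 had 12 in common, 85.7% of the MEF2A 3 list. MEF2A 3 and MEF2A 4 had 8 in common, and all 8 were also raised in YAP5SA_MEF2A 2: Irf7, Usp18, Isg15, Rsad2, Parp14, Gbp3, Ifit1 and Oasl2. Of these only Ifit1 and Oasl2 were raised in YAP5SA 3. These lists were drawn after the values were seen, and no test of the difference was made.

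Many of the genes share the core of the ISRE near their start site, mostly before it. The RefSeq promoter table, on GRCm38.p6, held 32 of the 42 genes, each with 250 bases before and 50 bases after its start. The ISRE core was searched on both strands as GAAA and GAAA separated by 2 bases, and the GAS core as TTCNNNGAA, which reads the same on both strands. The ISRE core was present in 17 of the 32 genes (53.1%) and in 1079 of the 27025 genes of the table (3.99%). The GAS core was in 7 of 32 (21.9%), against 9.55% of genes in the table, and 4 of the 32 held both. By role, all 5 of the matched GTPases held the ISRE core, as did 2 of 2 sensors, 6 of 12 effectors, 2 of 4 signalling genes, 1 of 7 MHC class I genes and Cxcl10. In the 2 sensors, Ifih1 and Eif2ak2, no core lay wholly before the start. A match is a description of letters and not of binding. The windows below are from 8 genes of different roles, read 5′ to 3′ on the strand of the gene, with 1 ISRE core in capitals and on either strand.
Igtp: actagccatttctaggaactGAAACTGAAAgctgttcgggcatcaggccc
Irgm1: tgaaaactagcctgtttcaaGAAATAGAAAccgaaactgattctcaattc
Gbp7: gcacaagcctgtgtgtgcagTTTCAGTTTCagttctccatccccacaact
B2m: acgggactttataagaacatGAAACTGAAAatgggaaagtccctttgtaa
Bst2: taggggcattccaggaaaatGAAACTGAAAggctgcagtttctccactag
Ifit1: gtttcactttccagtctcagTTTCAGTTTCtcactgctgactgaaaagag
Isg15: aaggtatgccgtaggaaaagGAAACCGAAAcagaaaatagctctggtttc
Cxcl10: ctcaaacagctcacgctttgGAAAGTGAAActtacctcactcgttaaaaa

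These windows lie at chr11:58199502-58199551 (Igtp), chr11:48871421-48871470 (Irgm1), chr3:142530263-142530312 (Gbp7), chr2:122147528-122147577 (B2m), chr8:71537567-71537616 (Bst2), chr19:34640784-34640833 (Ifit1), chr4:156200861-156200910 (Isg15) and chr5:92349073-92349122 (Cxcl10). The genes Irgm1, Bst2, Isg15 and Cxcl10 are on the minus strand and the others on the plus strand. The last base of the core lies 25 bases before the start of Igtp, 21 before Irgm1, 44 before Gbp7, 130 before B2m, 115 before Bst2, 76 before Ifit1, 63 before Isg15 and 204 before Cxcl10. H2-K1, H2-D1, Tap1, Tapbp and Psmb9 were in the table without either core, and so were Irf7, Irf9 and Oasl2. The members also lie in clusters: 10 of the 42 are on chromosome 17, 8 of them in or near the MHC, 6 on chromosome 11, and 4 each on chromosome 3, which holds the Gbp genes, and chromosome 19, which holds the Ifit genes.

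The inducible GTPases had the widest range of mean log2 CPM between libraries among the 7 roles, from 0.96 in Control 4 to 7.75 in Control 2. Iigp1 (ENSMUSG00000054072), which loads onto the vacuoles of intracellular parasites, was at 1.25, 928, 1.43, 1.48 and 2.62 CPM in Controls 1 to 5. It was at 3.81, 3.18, 5.23 and 4.07 CPM in MEF2A 1 to 4, 4.42, 7.44 and 25.5 CPM in YAP5SA 1 to 3 and 6.94 and 51.1 CPM in the 2 libraries with both viruses. Control 2 was 18.2-fold above the next highest library and 228-fold above the median of the other 13. With Control 2 set aside, all 9 virus libraries lay above the other 4 Controls, the lowest at 3.18 CPM against 2.62 CPM for the highest Control. Iigp1 was the only 1 of the 42 genes with this order, which 0.4% of all tested genes had, and it was singled out after its values were seen.

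Igtp (ENSMUSG00000078853, chromosome 11, 58199556 to 58207591), a relative of Iigp1 that guards membranes of the cell itself, followed the same libraries. It was at 2.04, 429, 0.530, 1.85 and 2.70 CPM in Controls 1 to 5, 3.54, 4.06, 6.38 and 2.92 CPM in MEF2A 1 to 4, 1.96, 2.60 and 11.6 CPM in YAP5SA 1 to 3 and 3.65 and 21.8 CPM with both viruses. Here 7 of the 9 virus libraries lay above the Controls other than Control 2, with YAP5SA_MEF2A 2 and YAP5SA 3 the highest, and YAP5SA 1 and 2 lay within the range of those Controls. Exons of Igtp and Irgm2 overlap, so their counts are uncertain. Irgm1, a GTPase of autophagy, was at 277 CPM in Control 2, 3.26 to 8.66 CPM in the other Controls and 3.68 to 17.5 CPM in the virus libraries, and the ranges overlap. The guanylate-binding proteins Gbp2, Gbp3 and Gbp7 were at 44.9, 207 and 98.5 CPM in Control 2. Gbp3 split the MEF2A group, with 7.46, 9.98, 27.3 and 26.5 CPM in MEF2A 1 to 4 and 4.67 to 7.18 CPM in the Controls other than Control 2.

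Of the 9 MHC class I genes, 6 stood at least 2-fold above their median in Control 2, YAP5SA 3 and YAP5SA_MEF2A 2 alike; Tap2 did so in neither of the virus libraries, and Tapbp and Psmb8 did not in YAP5SA_MEF2A 2. H2-D1 (ENSMUSG00000073411, chromosome 17, 35262730 to 35267499), a heavy chain of classical MHC class I, was at 67.6, 1116, 25.7, 43.3 and 37.2 CPM in Controls 1 to 5. It was at 37.2, 41.7, 76.7 and 45.9 CPM in MEF2A 1 to 4, 68.6, 30.2 and 547 CPM in YAP5SA 1 to 3 and 52.6 and 241 CPM with both viruses. After those 3 libraries the next highest was MEF2A 3. H2-K1, the other heavy chain, was at 29.6, 831, 19.8, 29.7 and 30.1 CPM in Controls 1 to 5, 21.0, 52.4, 40.5 and 50.9 CPM in MEF2A, 34.5, 42.3 and 368 CPM in YAP5SA and 31.4 and 206 CPM with both viruses. Class I heavy chains are close copies of each other, so reads may have been split between them.

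B2m, the light chain that each class I molecule needs, was at 19.2, 250.3, 3.999, 13.9 and 15.5 CPM in Controls 1 to 5 and 29.6, 9.82 and 231 CPM in YAP5SA 1 to 3, so that YAP5SA 3 came close to Control 2. In MEF2A libraries B2m was at 6.99 to 17.3 CPM and with both viruses at 20.8 and 73.3 CPM. Tap1, part of the peptide transporter, was at 25.3, 769.8, 15.8, 22.9 and 21.7 CPM in Controls, 15.8, 28.7, 37.6 and 35.8 CPM in MEF2A, 21.4, 22.5 and 76.3 CPM in YAP5SA and 21.8 and 86.9 CPM with both viruses. For Tap1 the order differed from that of B2m: Control 2 was 8.85-fold above the next library, against 1.08-fold for B2m. Psmb9, a subunit of the immunoproteasome that cuts peptides for class I, was at 1.81, 79.0, 0.775, 1.21 and 0.616 CPM in Controls, 1.25, 0.437, 2.35 and 2.25 CPM in MEF2A, 1.02, 1.23 and 14.9 CPM in YAP5SA and 1.78 and 7.46 CPM with both viruses. Exons of Psmb9 and Tap1 overlap on opposite strands.

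Nlrc5 (ENSMUSG00000074151, chromosome 8, 94434356 to 94527272), the transactivator of MHC class I genes, was at 0.680, 388, 2.53, 3.23 and 2.89 CPM in Controls 1 to 5. It was at 0.926, 1.87, 8.97 and 4.86 CPM in MEF2A, 3.01, 1.89 and 33.3 CPM in YAP5SA and 2.79 and 36.1 CPM with both viruses, so that the same 3 libraries led as for H2-D1. Tap2, Tapbp and Psmb8 were highest in Control 2 as well, at 84.1, 55.7 and 104 CPM, against at most 19.9 CPM for Tap2 in another library, 27.9 CPM for Tapbp and 20.7 CPM for Psmb8.

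**Figure D2:**
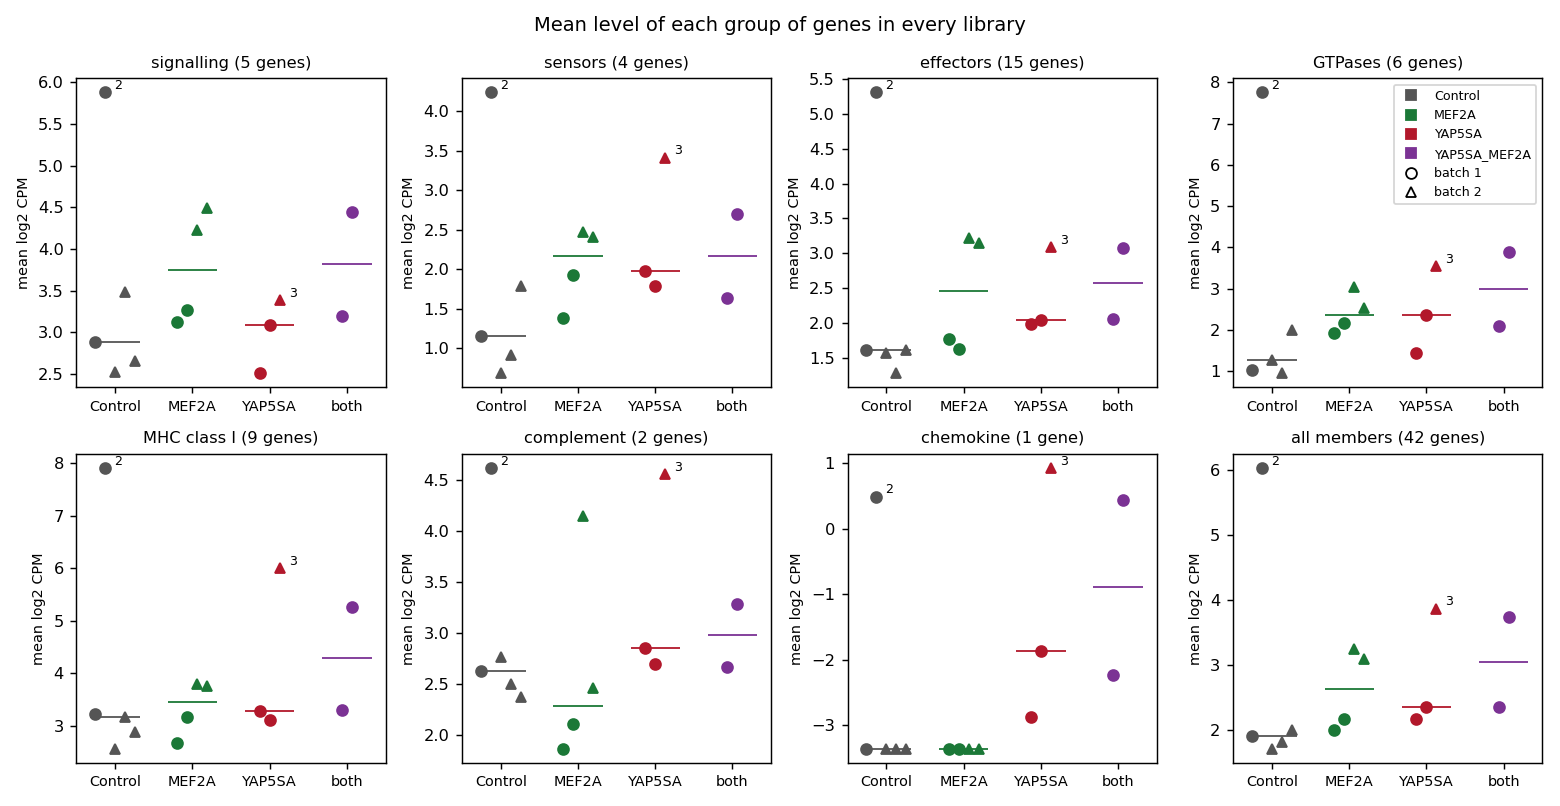
Mean log2 CPM of the genes of each role, and of all 42, in every library; points are libraries, colours are groups, circles batch 1 and triangles batch 2, lines are group medians, and the labels 2 and 3 mark Control 2 and YAP5SA 3. Control 2 is the highest library in all panels but that of the chemokine, where YAP5SA 3 is higher, and MEF2A 3 and 4 lie above MEF2A 1 and 2 in all panels but that of the chemokine.

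Signalling genes differed in how far they varied. Stat2 and Irf9, subunits of the complex that binds the ISRE, were well expressed in all libraries. Stat2 was at 106, 589, 82.8, 123 and 136 CPM in Controls 1 to 5, 136, 127, 183 and 186 CPM in MEF2A, 99.0, 153 and 143 CPM in YAP5SA and 171 and 226 CPM with both viruses. Irf9 varied little, from 57.1 to 90.2 CPM in the Controls other than Control 2, 129.6 CPM in Control 2 and 49.7 to 97.9 CPM in the virus libraries. Irf7, a factor that amplifies type I interferon, varied more. It was at 7.71, 124, 6.16, 10.1 and 9.74 CPM in Controls 1 to 5, 7.24, 8.80, 22.8 and 38.1 CPM in MEF2A, 4.42, 8.32 and 16.6 CPM in YAP5SA and 8.76 and 21.2 CPM with both viruses. MEF2A 3 and 4 were the highest libraries for Irf7 after Control 2. Usp18, a protease that damps the receptor, reached 32.1 CPM in Control 2, 8.72 CPM in YAP5SA_MEF2A 2 and 6.50 CPM in MEF2A 4. Isg15, a ubiquitin-like modifier, stayed at or under 2.22 CPM in every library.

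Sensors of viral nucleic acid were low. Eif2ak2, the kinase PKR that stops translation on double-stranded RNA, was the most abundant, at 9.64, 36.8, 15.4, 26.2 and 28.1 CPM in Controls 1 to 5 and 20.1 to 32.5 CPM in the virus libraries. Its groups overlapped. Ifih1, the RNA sensor MDA5, was at 8.39, 30.1, 4.12, 1.34 and 4.70 CPM in Controls and 2.19 to 9.64 CPM in the virus libraries. Dhx58, its relative LGP2, was at 2.95, 6.78, 0, 3.33 and 2.27 CPM in Controls, and YAP5SA 3 (8.17 CPM) was above Control 2. An antisense gene, Dhx58os, overlaps it, and the libraries do not mark strand. Zbp1, a sensor of Z-form nucleic acid, reached 16.6 CPM in Control 2 and 7.62 CPM in YAP5SA 3, with at most 2.11 CPM elsewhere.

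Among the antiviral effectors, Oasl2, a relative of the oligoadenylate synthetases, differed widely within groups. Oasl2 (ENSMUSG00000029561, chromosome 5, 114896936 to 114912234) was at 6.46, 356, 3.30, 7.60 and 7.39 CPM in Controls 1 to 5, 9.04, 5.62, 43.9 and 37.0 CPM in MEF2A 1 to 4, 13.7, 10.3 and 33.2 CPM in YAP5SA 1 to 3 and 10.3 and 34.9 CPM with both viruses. The 4 raised virus libraries lay between 33.2 and 43.9 CPM, and the other 5 virus libraries between 5.62 and 13.7 CPM. Parp14, an ADP-ribosyltransferase, was at 17.3, 260.2, 15.7, 16.4 and 12.8 CPM in Controls, 18.02, 19.97, 45.6 and 43.9 CPM in MEF2A, 11.3, 14.4 and 27.2 CPM in YAP5SA and 12.6 and 36.8 CPM with both viruses, with the same 4 virus libraries on top. Rnf213, a giant ubiquitin ligase, was at 112, 456, 68.8, 95.9 and 95.8 CPM in Controls, 101, 108, 168 and 166 CPM in MEF2A, 77.5, 140.3 and 95.8 CPM in YAP5SA and 133 and 185 CPM with both viruses. For Rnf213, YAP5SA 3 was within the range of Controls 1, 3, 4 and 5.

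Bst2, or tetherin, which holds budding virus at the cell surface, was at 0, 22.4, 1.26, 0.740 and 1.62 CPM in Controls, 1.03, 0.874, 3.65 and 6.32 CPM in MEF2A, 3.21, 1.37 and 9.37 CPM in YAP5SA and 2.83 and 4.54 CPM with both viruses. Ly6e, a membrane protein that limits viral entry, was at 18.7, 63.4, 15.95, 11.2 and 18.5 CPM in Controls and 15.6, 13.8 and 64.9 CPM in YAP5SA, where YAP5SA 3 was level with Control 2. In MEF2A it was at 13.1 to 27.2 CPM and with both viruses at 14.1 and 17.0 CPM. Ifit1, which binds foreign RNA ends, was at 40.8 CPM in Control 2, at most 0.462 CPM in the other Controls and at most 3.89 CPM elsewhere. Ifit3 and Ifit3b are near-identical copies, so their counts are uncertain. Ifit2 was at 12.2, 36.5, 17.1, 15.7 and 9.97 CPM in Controls, 17.6, 7.99, 21.7 and 15.4 CPM in MEF2A, 30.2, 25.6 and 14.5 CPM in YAP5SA and 26.4 and 37.2 CPM with both viruses. YAP5SA_MEF2A 2 and Control 2 were the highest, the 4 libraries of batch 1 with YAP5SA were at 25.6 CPM or more, and YAP5SA 3 was at 14.5 CPM. Ifit2 was singled out after its values were seen. The other 8 effectors were between 3.52 CPM (Ifit3b) and 49.2 CPM (Rsad2) in Control 2 and between 0 and 13.8 CPM in the other 13 libraries. Of these, Ifi27l2a reached 11.1 CPM in YAP5SA 3.

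**Figure D3:**
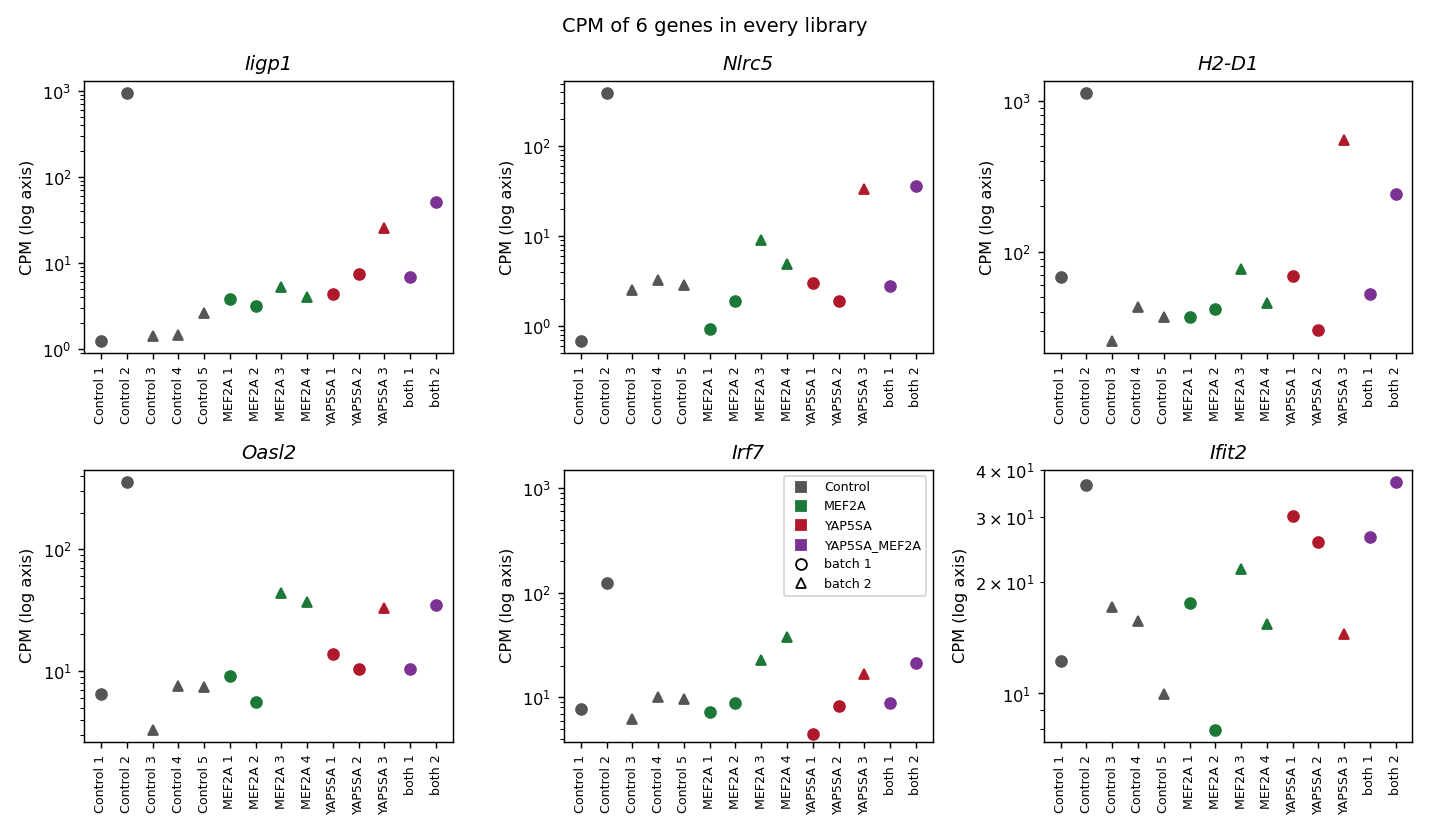
CPM of 6 genes of different roles in every library, on log axes; colours are groups, circles batch 1 and triangles batch 2. Iigp1, Nlrc5 and H2-D1 are led by Control 2, YAP5SA 3 and the second library with both viruses, Oasl2 and Irf7 are also raised in MEF2A 3 and 4, and Ifit2 is highest in the second library with both viruses and Control 2 but not in YAP5SA 3.

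Complement genes and the chemokine were low in most libraries. C3, the hub of the complement cascade, was at 6.12, 14.3, 8.73, 9.38 and 8.66 CPM in Controls 1 to 5, 3.16, 3.87, 24.6 and 5.59 CPM in MEF2A, 7.63, 5.51 and 25.9 CPM in YAP5SA and 7.25 and 8.03 CPM with both viruses. YAP5SA 3 and MEF2A 3 were above Control 2. C4b, which acts upstream of C3, was at 6.01, 41.5, 5.10, 3.29 and 2.97 CPM in Controls, 3.97, 4.56, 12.6 and 5.23 CPM in MEF2A, 6.65, 7.35 and 21.2 CPM in YAP5SA and 5.39 and 11.6 CPM with both viruses. C4b shares most of its sequence with C4a, so its counts are uncertain. Cxcl10, which draws T cells, was at 0 in Controls 1, 3, 4 and 5 and in all 4 MEF2A libraries. It was at 1.30 CPM in Control 2, 0.0391, 0.176 and 1.80 CPM in YAP5SA and 0.116 and 1.26 CPM with both viruses. Its exons overlap Art3, and its 85 counts over all libraries limit what can be read from it.

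Per kilobase of exon, the order of the genes was not the same in Control 2 as in the other Controls. Over Controls 1, 3, 4 and 5 the median was 19.4 CPM per kilobase for Stat2, 17.1 for B2m, 15.6 for H2-D1, 13.6 for Irf9 and 10.1 for H2-K1, and the ranges of the first 4 overlapped. Iigp1 ranked at position 36 of 42 there, with 0.25 CPM per kilobase. In Control 2 it ranked at position 5, at 159 CPM per kilobase, after H2-D1 (433), B2m (291), H2-K1 (283) and Igtp (212).

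Over all 14 libraries, edgeR called no member in any of the 5 comparisons. The test was edgeR's quasi-likelihood test with group and batch as terms and Benjamini-Hochberg adjustment over all tested genes, and called means an adjusted p under 0.05. In YAP5SA against Control 0 of 42 members were called, where 9.86% of all genes were, and the median log2 fold change of the members was -0.65 against 0.06 for all genes. In MEF2A against Control 0 were called (0.0167% of all genes), with a median of -0.65. In both viruses against Control 0 were called (1.36% of all genes), with a median of -0.97. In any virus against Control, which sets the mean of the 3 virus groups against Control, 0 were called (2.18% of all genes), with a median of -0.78. At an unadjusted p under 0.05, edgeR counted 0 members in each of these 4 comparisons. DESeq2 called 0, 1, 0 and 0 and limma-voom 0 in each, and edgeR also called 0 with mitochondrially encoded genes removed. The sign of the medians depended on the method: limma-voom gave 0.44, 0.23, 0.73 and 0.42. Scaling by library totals alone moved the median of all genes to 0.69, 0.21, 0.84 and 0.56, and that of the members to 0.15, -0.12, 0.26 and 0.03, below it in each.

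The fitted values over 14 libraries had wide errors. In YAP5SA against Control the log2 fold change was -2.41 (SE 3.34, adjusted p = 0.721) for Iigp1, -1.60 (SE 2.03, adjusted p = 0.69) for Oasl2 and 0.15 (SE 1.86, adjusted p = 0.974) for H2-D1 by edgeR. With no filter on low counts, edgeR called 13 members lower in YAP5SA against Control (3.6% of all genes), 11 in MEF2A (0.948%), 13 with both viruses (1.1%) and 19 with any virus (1.92%). That fit gave Iigp1 nearly the same log2 fold change with any virus, -3.10 with an SE of 0.25, against -3.11 with an SE of 2.24 in the filtered fit.

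Without Controls 1 and 2, most of the 42 genes had a positive log2 fold change, 40 of 42 in YAP5SA against Control. In YAP5SA against Control 13 of 42 members rose and 0 fell, where 6.73% of all genes rose, and the median log2 fold change was 1.60. The 13 were 4 of the 9 MHC class I genes, 2 of the 6 GTPases, 5 of the 15 effectors and both complement genes. These calls depended on YAP5SA 3: with it left out as well, 0 members were called, where 57 of 17514 genes rose. In both viruses against Control 6 rose (0.633% of all genes), with a median of 2.49. In any virus against Control 7 rose (0.627% of all genes), with a median of 1.82. In MEF2A against Control 0 were called (0.0056% of all genes rose), with a median of 1.41 and 22 members higher at an unadjusted p under 0.05 by edgeR (3.29% of all genes). DESeq2 called 6 members higher there (0.521% of all genes) and limma-voom 0. The median of all genes was between -0.06 and -0.02 in these 4 comparisons.

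For MHC class I without Controls 1 and 2, YAP5SA against Control gave by edgeR a log2 fold change of 3.64 (SE 0.85, adjusted p = 0.0283) for B2m, 3.4 (SE 0.72, adjusted p = 0.00941) for Psmb9, 3.09 (SE 0.83, adjusted p = 0.0494) for H2-D1 and 3.06 (SE 0.81, adjusted p = 0.0335) for Nlrc5. H2-K1 at 2.92 (SE 0.90, adjusted p = 0.0757) and Tap1 at 1.53 (SE 0.49, adjusted p = 0.0638) did not pass the test. Among GTPases, Iigp1 rose by 3.23 (SE 0.70, adjusted p = 0.0143) and Gbp7 by 1.52 (SE 0.44, adjusted p = 0.0382), and Igtp at 2.11 (SE 0.78, adjusted p = 0.0991) and Irgm1 at 1.03 (SE 0.48, adjusted p = 0.181) did not pass. The effectors that rose by edgeR were Bst2 at 3.09 (SE 0.58, adjusted p = 0.00567), Ly6e at 1.63 (SE 0.32, adjusted p = 0.00627), Oasl2 at 2.87 (SE 0.54, adjusted p = 0.00694), Ifi27l2a at 3.51 (SE 0.96, adjusted p = 0.0295) and Xaf1 at 1.57 (SE 0.45, adjusted p = 0.0347). Complement C4b rose by 2.28 (SE 0.45, adjusted p = 0.00639) and C3 by 1.58 (SE 0.46, adjusted p = 0.0388) in edgeR's test. C3 was at 7.63, 5.51 and 25.9 CPM in YAP5SA 1 to 3 and 8.73, 9.38 and 8.66 CPM in Controls 3 to 5. YAP5SA 1 and 2 thus lay below all of those Controls, and the fitted value includes the batch difference. Of the genes called here, only Iigp1, Oasl2 and C4b were above Controls 3 to 5 in every YAP5SA library. The signalling genes and sensors gave 0 calls: edgeR placed Irf7 at 1.16 (SE 0.43, adjusted p = 0.0933), Stat2 at 0.45 (SE 0.26, adjusted p = 0.277), Irf9 at -0.27 (SE 0.25, adjusted p = 0.518), Eif2ak2 at -0.01 (SE 0.27, adjusted p = 0.993), Ifih1 at 1.11 (SE 0.57, adjusted p = 0.223) and Dhx58 at 1.95 (SE 1.01, adjusted p = 0.233). Parp14 at 0.92 (SE 0.35, adjusted p = 0.103) and Rnf213 at 0.51 (SE 0.30, adjusted p = 0.29) were not called either. Cxcl10, pooled over the YAP5SA libraries, was at least 16.1-fold higher, from 41 counts against a floor of 3 counts over the 3 Controls, which held 0. YAP5SA 3 carried most of this, with 0.0391, 0.176 and 1.80 CPM in YAP5SA 1 to 3, so the bound does not hold for each library. The fitted log2 fold change of Cxcl10 is no bound (edgeR's adjusted p = 0.0679).

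With both viruses and without Controls 1 and 2, edgeR gave a log2 fold change of 5.72 (SE 1.05, adjusted p = 0.035) for Nlrc5, 5.14 (SE 0.90, adjusted p = 0.0258) for Iigp1 and 4.88 (SE 0.94, adjusted p = 0.0271) for Psmb9. Oasl2 rose by 3.96 (SE 0.65, adjusted p = 0.0163), Bst2 by 3.84 (SE 0.71, adjusted p = 0.0211) and Irf7 by 2.51 (SE 0.53, adjusted p = 0.0377) in the same test. The 2 libraries behind these values were far apart, with Nlrc5 at 2.79 and 36.1 CPM and Iigp1 at 6.94 and 51.1 CPM. Both are in batch 1 and Controls 3 to 5 are in batch 2, so each value includes the fitted batch difference. That difference comes from MEF2A and YAP5SA libraries alone. Irf7 was at 8.76 and 21.2 CPM with both viruses and at 6.16, 10.1 and 9.74 CPM in Controls 3 to 5. With any virus the 7 members were Oasl2 at 3.12 (SE 0.50, adjusted p = 0.0156), Bst2 at 2.96 (SE 0.55, adjusted p = 0.0223), C4b at 2.02 (SE 0.42, adjusted p = 0.0401), Psmb9 at 3.4 (SE 0.72, adjusted p = 0.0407), Irf7 at 1.79 (SE 0.39, adjusted p = 0.0468), Iigp1 at 3.37 (SE 0.69, adjusted p = 0.0473) and Parp14 at 1.45 (SE 0.32, adjusted p = 0.049), by edgeR. In MEF2A against Control, Oasl2 at 2.53 (SE 0.47, adjusted p = 0.202), Parp14 at 1.53 (SE 0.31, adjusted p = 0.217) and Irf7 at 1.70 (SE 0.38, adjusted p = 0.293) did not pass edgeR's test.

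**Figure D4:**
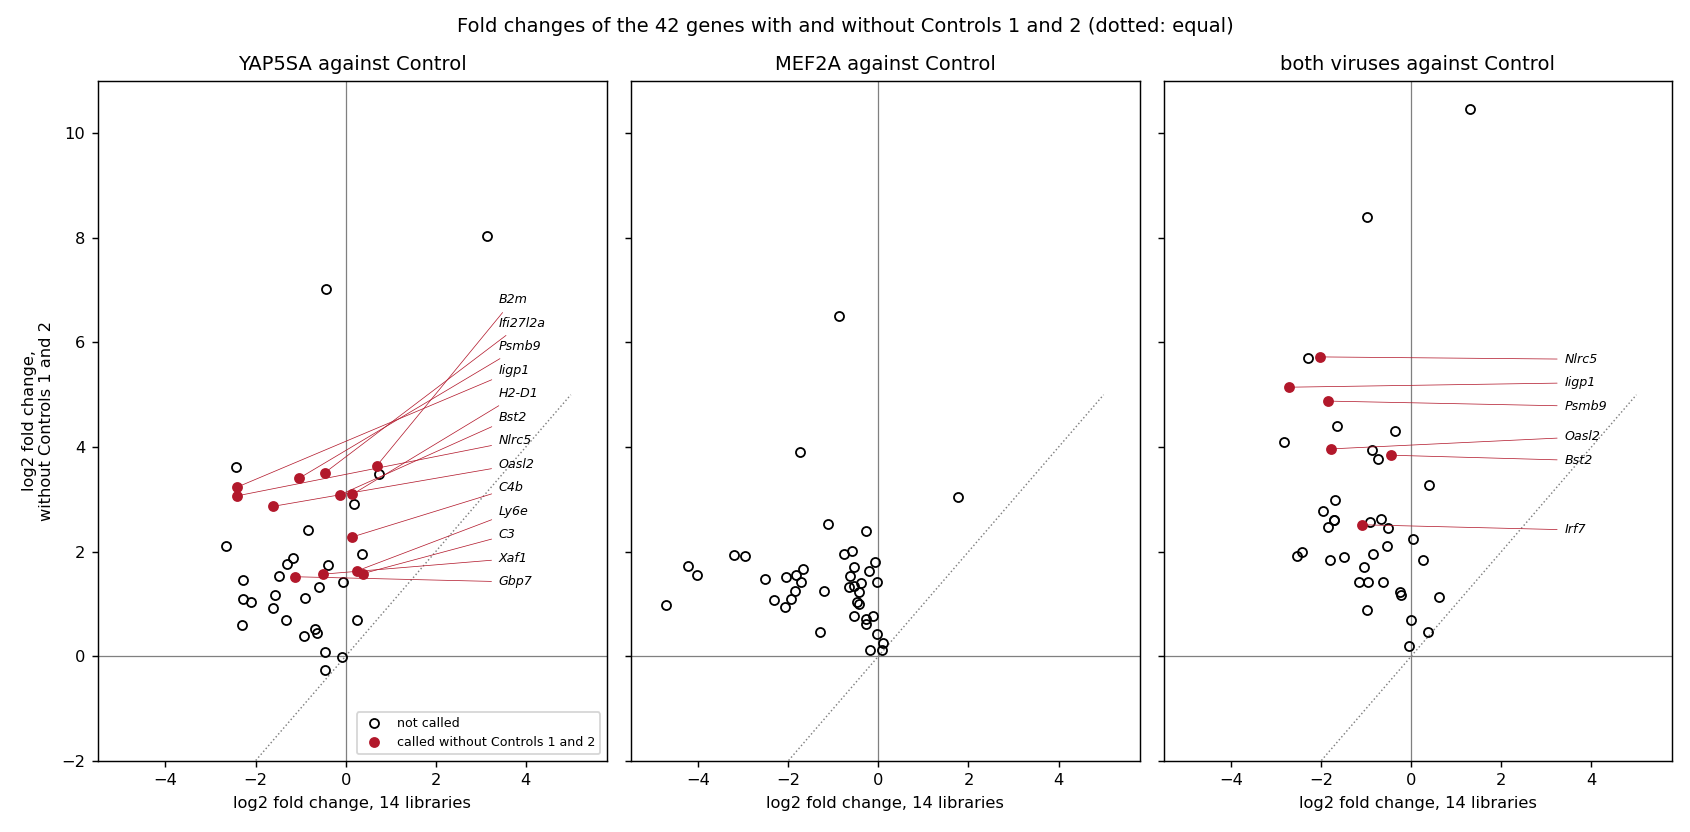
Log2 fold change of each of the 42 genes over 14 libraries (x axis) and without Controls 1 and 2 (y axis) in 3 comparisons; filled points are genes with an adjusted p under 0.05 without Controls 1 and 2, and the dotted line marks equal values. All 42 points of each comparison lie above the dotted line, and most have a negative value on the x axis and a positive value on the y axis; the values of Cxcl10 and Ifit3b, with 0 counts in Controls 3 to 5, depend on the prior count.

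The number of calls changed with the batch term and with single libraries, while the medians stayed above 0. Without Controls 1 and 2 no Control is left in batch 1, so the batch difference is taken from MEF2A and YAP5SA libraries alone. With no batch term, 1 member was called in YAP5SA against Control, 1 with both viruses and 0 with any virus, and the medians were 1.05, 1.11 and 0.99. With the batch term kept and YAP5SA 3 left out as well, 0, 1 and 1 members were called, while 38, 41 and 41 of the 42 genes were above 0 with medians of 1.51, 2.20 and 1.57. In that fit the genes called over the whole table in YAP5SA against Control also fell, from 1201 higher and 849 lower to 57 and 18. With both viruses 38 of all genes rose in that fit, and with any virus 22. There MEF2A is the only group in both batches, so MEF2A 3 and 4 against MEF2A 1 and 2 set the batch difference, which these medians include. The mean log2 CPM of the 42 genes was 1.99, 2.16, 3.25 and 3.09 in MEF2A 1 to 4. It was 2.17 and 2.35 in YAP5SA 1 and 2 and 1.71, 1.81 and 2.00 in Controls 3 to 5. Leaving out each of the other libraries in turn gave 6 (Control 4) to 16 (YAP5SA 2) members in YAP5SA against Control, with 8 without MEF2A 1. In the fits named, 768 of 17559, 1776 of 17792 and 970 of 17830 genes rose. With both viruses, leaving out 1 library gave 1 member without Control 4, MEF2A 1 or YAP5SA_MEF2A 2. It gave 2 without MEF2A 2, 3 without Control 5 or MEF2A 3 and 10 without YAP5SA_MEF2A 1. In the order named, 60, 51, 38, 66, 83, 67 and 48 genes rose, of 17559 to 20250 tested. With any virus, leaving out 1 library gave 0 members without Control 4 or Control 5 and 2 without MEF2A 2 or MEF2A 3. It gave 3 without Control 3, MEF2A 1, MEF2A 4 or YAP5SA_MEF2A 2, 10 without YAP5SA_MEF2A 1 and 13 without YAP5SA 2. Here 37, 33, 72, 52, 82, 59, 57, 62, 78 and 352 genes rose in the order named, of 17549 to 20250 tested. In MEF2A against Control, 3 members were called without YAP5SA_MEF2A 1 and 2 without YAP5SA_MEF2A 2, where 8 of 20250 and 7 of 20229 genes rose. Leaving out Control 2 alone and keeping Control 1 gave 7 members higher in YAP5SA against Control (6.13% of all genes), 4 with both viruses (0.993%), 5 with any virus (1.08%) and 0 with MEF2A, with medians of 1.00, 1.43, 1.09 and 0.69.

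Within batches the direction was opposite. The mean log2 CPM of the 42 genes in batch 2 was 1.71, 1.81 and 2.00 in Controls 3 to 5, 3.25 and 3.09 in MEF2A 3 and 4 and 3.86 in YAP5SA 3. All 3 virus libraries of batch 2 were above all 3 Controls. In batch 1 it was 1.91 and 6.03 in Controls 1 and 2, 1.99 and 2.16 in MEF2A 1 and 2, 2.17 and 2.35 in YAP5SA 1 and 2, and 2.35 and 3.74 with both viruses. All 6 virus libraries of batch 1 were above Control 1 and below Control 2. The difference of MEF2A minus Control was thus -1.89 in batch 1 and 1.33 in batch 2, and that of YAP5SA minus Control was -1.71 and 2.02.

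Fitted in batch 2 alone, which holds 1 YAP5SA library assumed to vary like the other groups, edgeR called 15 members higher in YAP5SA against Control (6.07% of all genes). Those calls describe YAP5SA 3, the library with the most macrophage marker RNA (1054 CPM), and not its group. In MEF2A against Control 4 members were called higher (0.0922% of all genes). By edgeR these were Oasl2 at 2.74 (SE 0.33, adjusted p = 0.00639), Gbp3 at 2.23 (SE 0.32, adjusted p = 0.0143), Parp14 at 1.60 (SE 0.24, adjusted p = 0.0159) and Irf7 at 1.83 (SE 0.32, adjusted p = 0.0439). In batch 2, 30 of the 42 genes were higher in MEF2A 3 and 4 than in all 3 Controls, where 11.1% of all genes were. In batch 1 alone, with Controls 1 and 2, edgeR called 2 members, Tapbp and Ifih1, lower in YAP5SA (3.5% of all genes) and 12 lower with any virus (5.58%).

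YAP5SA against MEF2A uses no Control in its contrast, though Controls enter the estimate of batch and spread. Over 14 libraries 0 of 42 members were called, where 14.9% of all genes were, with a median log2 fold change of 0.24. By edgeR 1 member was higher (Cxcl10) and 1 lower (Irf9) at an unadjusted p under 0.05, where 2859 and 2436 of 17987 genes were. DESeq2 called 1 member, where 2105 genes rose and 1822 fell. For limma-voom it was 0 members, where 1556 genes rose and 1610 fell. Without Controls 1 and 2, B2m rose, by 2.57 (SE 0.73, adjusted p = 0.0355) in edgeR's test, as 1 of 42 members (12.2% of all genes rose), and the median was 0.39. Without YAP5SA 3 the median over 13 libraries was -1.79. Without Controls 1 and 2 no member was called once YAP5SA 1, YAP5SA 3 or MEF2A 4 was left out. With each of these left out in turn, 1055, 475 and 1513 genes rose and 1174, 381 and 1277 fell. Without Controls 1 and 2 and YAP5SA 2, 6 members were called, 3 higher and 3 lower, where 2635 of 17792 genes rose and 2588 fell. B2m was at 29.6, 9.82 and 231 CPM in YAP5SA and at 7.08, 6.99, 13.9 and 17.3 CPM in MEF2A, so the groups overlap.

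Interferon transcripts themselves were nearly absent. Of 10 interferon genes, 8 had 0 counts in all 14 libraries, and all 10 had 0 counts in Control 2. Ifng had 6 counts in all, in MEF2A 3 and YAP5SA_MEF2A 2, and Ifnk had 24, in Control 5, MEF2A 3 and MEF2A 4. Of 18 receptors, kinases and STAT and IRF factors, 3 rose and 0 fell in YAP5SA against Control over 14 libraries, with a median of 0.03. Ifngr1, a chain of the interferon gamma receptor, was at 1.19 (SE 0.26, adjusted p = 0.00732) and Irf5, a factor of innate immune cells, at 1.82 (SE 0.45, adjusted p = 0.016) by edgeR. Ifnar1, a chain of the type I interferon receptor, was at 92.6 to 159 CPM in Controls and 74.5 to 147 CPM in the virus libraries.

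Of 17 other genes of nucleic acid sensing, 16 were tested, and 2 rose and 0 fell in YAP5SA against Control. By edgeR these were Aim2, a DNA sensor, at 1.41 (SE 0.33, adjusted p = 0.0121), and Tmem173, the adaptor STING, at 1.27 (SE 0.31, adjusted p = 0.0161). Of 43 other interferon-stimulated genes, 41 were tested, and 0 rose and 1 fell, Parp9 at -1.20 (SE 0.36, adjusted p = 0.0484), with a median of -0.76 and, without Controls 1 and 2, 6 of 40 higher and a median of 0.94. Of 15 other MHC class I and peptide supply genes, Canx, a chaperone of the endoplasmic reticulum, rose at 0.72 (SE 0.16, adjusted p = 0.00927) and Psme1, a proteasome activator, fell at -0.87 (SE 0.24, adjusted p = 0.028). Of 15 other complement genes, 13 were tested and 0 called; without Controls 1 and 2, 4 rose, namely C1qa, C1qb, C1qc and C3ar1, which macrophages express, and C4a fell. Of 14 inflammatory and acute phase genes, 13 were tested and 7 rose, with a median of 2.54. Vcam1, an adhesion molecule for leukocytes, was at 1.85 (SE 0.32, adjusted p = 0.002) by edgeR. Serpina3n, an acute phase protease inhibitor, was at 0 to 0.0770 CPM in Controls and 2.86, 0.573 and 14.2 CPM in YAP5SA (edgeR's adjusted p = 0.00149), too few Control counts for a fold. In MEF2A against Control 0 genes of these lists were called over 14 libraries, and with both viruses only Canx. This inflammatory list did not follow Control 2: its summed level was 56.5 CPM there, against 39.8 to 71.8 CPM in the other Controls.

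Markers of other cell types moved with some of the raised libraries and not with others. In YAP5SA 3 the 12 macrophage markers summed to 1054 CPM, against 66.1 to 197 CPM in the Controls and 73.7 to 212 CPM in the other virus libraries, and YAP5SA 3 was the highest of 14 libraries for 12 of the 12. Csf1r, the receptor that macrophages depend on, was at 234 CPM there and Ptprc, the leukocyte antigen CD45, at 84.7 CPM. In Control 2 the macrophage sum was 197 CPM, with Csf1r at 60.9 CPM, Ptprc at 17.6 CPM and Cd163 at 0. In YAP5SA_MEF2A 2 it was 120 CPM, beside 117 CPM in YAP5SA_MEF2A 1, and in MEF2A 3 and 4 it was 115 and 82.5 CPM, against 73.7 and 76.9 CPM in MEF2A 1 and 2. The part of these cells in the rise of YAP5SA 3 was not tested. In YAP5SA_MEF2A 2, MEF2A 3 and MEF2A 4 the macrophage sum was within the range of the Controls. Without Controls 1 and 2, 9 of the 12 macrophage markers rose in YAP5SA against Control, with a median of 2.61, and 0 were called in MEF2A or with both viruses. Of the 8 cardiomyocyte markers 3 fell in YAP5SA against Control and 7 in YAP5SA against MEF2A, by edgeR, with and without Controls 1 and 2 alike. Their part in the members' values was not tested.

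The 10 markers of MHC class II antigen-presenting cells summed to 396 CPM in Control 2, 91.3 CPM in YAP5SA 3 and 4.37 to 21.7 CPM in the other 12 libraries. The sum was 15.2 CPM in YAP5SA_MEF2A 2, though 5 of the 10 stood at least 2-fold above their median over the 14 libraries. In Control 2 it was 7 of the 10 and in YAP5SA 3 it was 8. In Control 2 H2-Ab1 was at 104 CPM, Cd74 at 103 CPM and Ciita, the transactivator of class II, at 75.0 CPM. The dendritic cell markers Flt3, Xcr1 and Siglech had 0 counts in Control 2, the library with the fewest counts outside mitochondrially encoded genes (5554085). Of the 10 markers only 3 were detected in every library, so these 0 counts say little about such cells. The class II genes are themselves induced by interferon gamma, and their part was not tested. The 12 lymphocyte and other leukocyte markers summed to 42.5 CPM in Control 2, 107 CPM in YAP5SA 3, 40.3 CPM in YAP5SA 1 and 11.8 to 26.5 CPM in the other 11 libraries. The 12 endothelial markers were highest in Control 2, at 1194 CPM against 362.5 to 829 CPM elsewhere, and 4 of the 12 fell in YAP5SA against Control over 14 libraries and 1 without Controls 1 and 2. The 12 fibroblast markers summed to 3363 CPM in YAP5SA 3 and 1385 to 2334 CPM elsewhere.

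**Figure D5:**
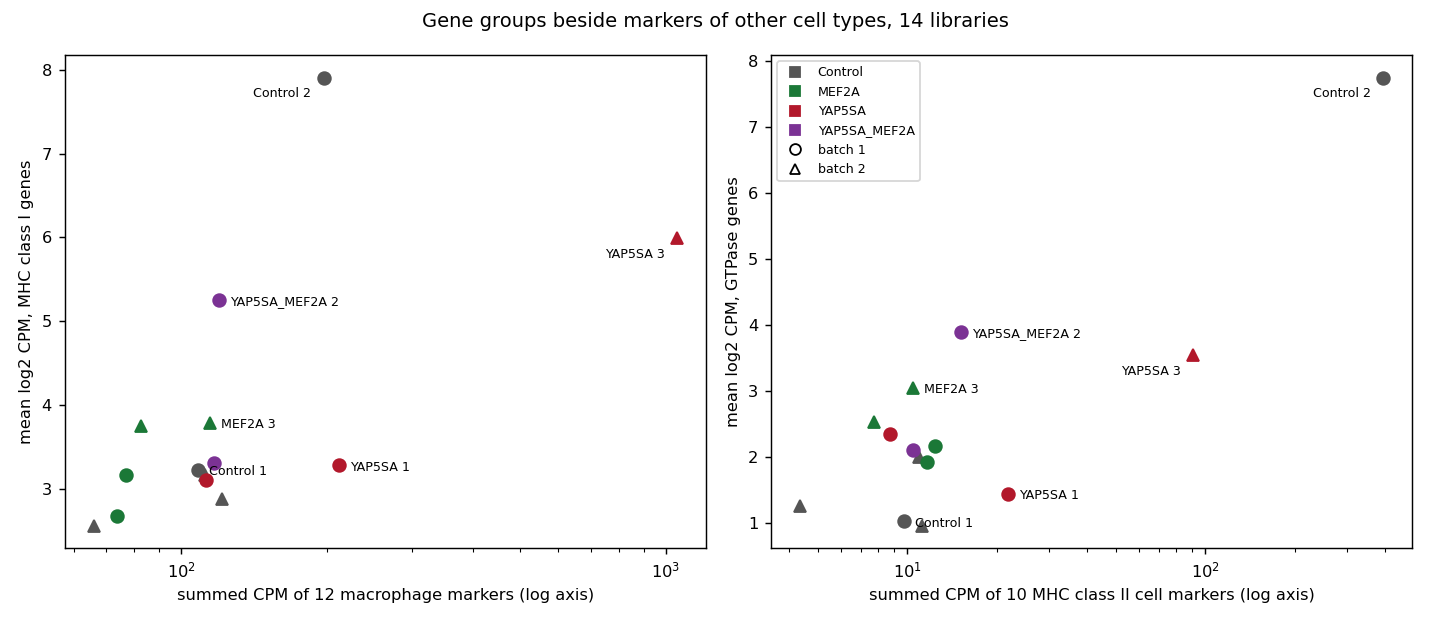
Mean log2 CPM of the 9 MHC class I genes against the summed CPM of 12 macrophage markers (left) and of the 6 inducible GTPases against the summed CPM of 10 MHC class II cell markers (right); points are libraries, colours are groups, circles batch 1 and triangles batch 2. YAP5SA 3 is high in both macrophage markers and MHC class I. YAP5SA_MEF2A 2 is high in both gene groups at low summed marker levels, and Control 2 is far above all other libraries in both gene groups.

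Control 2 also stood apart in related genes outside the members. Of 11875 genes with a mean log2 CPM of at least 1, the 100 with the largest gap between Control 2 and the highest other library held 25 of the 34 members that reached that level and 30 further genes of the lists above. The members were chosen with Control 2 already known to be high in them, and the lists with earlier results known. These counts therefore describe that library and are no further evidence. Among the largest gaps outside the members were those of Irgm2, Gbp4, Gbp6, Herc6, Ddx60, H2-Q6, Gm13456, Psmb10 and Casp12. Irgm2 and Gbp6 are inducible GTPases like Igtp and Gbp2, and were at 260.0 and 221 CPM in Control 2 with at most 8.52 and 15.7 CPM elsewhere. Ddx60, a helper of RNA sensing, was at 647 CPM with at most 64.8 CPM elsewhere. Psmb10, another subunit of the immunoproteasome, was at 173 CPM with at most 36.2 CPM elsewhere. For 5 of the 42 members Control 2 was more than 10-fold above every other library: Iigp1, Igtp, Irgm1, Nlrc5 and Ifit1.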

How the data were processed

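The authors deposited raw whole-number counts, 1 value for each Ensembl gene and each of the 14 libraries, per the file headers. Per the labels, libraries were polyA-selected and non-directional. Exons of Irf7, Irf9, Nlrc5, Rnf213 and Parp14, among other members, also overlap those of other genes, so their counts are uncertain to an unknown extent. STAR, limma, edgeR and build GRCm38 are named in the submitters' processing notes; the counting program is not given in the sources used here. No 2 columns were identical (0 pairs), and 0 columns belonged to no sample.

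Symbols came from GENCODE vM21 by gene ID (54409 of 54446 genes). The members and all lists were chosen with earlier results of these data known. Genes were kept by filterByExpr at a minimum count of 10. Counts were tested with edgeR 4.0.16 in R 4.3.3 (quasi-likelihood, robust, TMM scaling, group and batch, 14 libraries), and the code was tested on simulated data. CPM use TMM-scaled totals, and log2 CPM a prior count of 2. Alternatives used limma 3.58.1 and DESeq2 1.42.0. Named members were the 3 of each role with the highest mean CPM and the 6 called against Control with the smallest p; other called members and genes are named after their values were seen. The fits that vary the set without Controls 1 and 2 were chosen after seeing the data. Promoter sequences are RefSeq's, on GRCm38.p6. Replicate numbers do not pair libraries by the labels. Of the genes outside the members, 1 is not reported here.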

Additional observations from a re-analysis of the deposited data

Results flagged for a closer look

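In 22 of 29 quantities in the Control group, and in 0 of those in the MEF2A group, 1 library lay far from the others by Dixon's test. Chance gives this in about 1 in 20 groups. The genes were chosen with Control 2 already known to be high in them, so these values describe that library and are no further evidence. Cxcl10 was counted both as a gene and as the chemokine role, which holds no other gene. In the MEF2A group it was at 0 throughout and could not be tested under either. Of the 22, 21 were Control 2 on the high side, and they share that library, so they are not separate observations. The mean log2 CPM of Control 2 was 6.03 over the 42 genes, 5.88 for signalling, 5.31 for effectors, 7.75 for inducible GTPases, 7.91 for MHC class I, 4.61 for complement and 0.49 for the chemokine. Among single genes its log2 CPM was 9.20 for Stat2, 6.95 for Irf7, 8.83 for Rnf213, 8.48 for Oasl2, 8.02 for Parp14 and 9.86 for Iigp1. It was 8.75 for Igtp, 8.11 for Irgm1, 10.12 for H2-D1, 9.70 for H2-K1 and 9.59 for Tap1. It was 5.38 for C4b, 0.49 for Cxcl10 and 6.31 for Psmb9. The other library was Control 3, on the low side for Dhx58, at -3.36, where it had 0 counts.

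The change in mean log2 CPM of the 42 genes was opposite in the 2 batches. It was -1.89 in batch 1 and 1.33 in batch 2 for MEF2A minus Control, and -1.71 and 2.02 for YAP5SA minus Control. The batch 1 values rest on Control 2: Control 1 was at 1.91 and the 6 virus libraries of batch 1 at 1.99 to 3.74, so the sign turns without Control 2. The difference between batches was not tested.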

How the results depend on the processing

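The cause of the changes listed here was not tested, and comparisons are given in the order YAP5SA, MEF2A, both viruses, any virus against Control, then YAP5SA against MEF2A. Members called, 0 in each over 14 libraries, were 13, 11, 13, 19 and 15 with no filter on low counts, all lower but for 10 of the 15. In YAP5SA against MEF2A 1947 of 29547 genes rose and 1465 fell with no filter. Members called were 13, 0, 6, 7 and 1 without Controls 1 and 2, all higher, and 1 for MEF2A (lower) and 1 for YAP5SA against MEF2A (higher) by DESeq2. They were 2 for YAP5SA and 12 for any virus in batch 1 alone, all lower. The fit of batch 2 alone holds 1 YAP5SA library, so its calls with YAP5SA describe that library only. In batch 2 alone 4 members were called for MEF2A, all higher. Leaving out 1 library at a time gave 0 to 7, 0 to 0, 0 to 4, 0 to 5 and 0 to 1. Of all genes, 544 to 2998, 0 to 101, 89 to 361, 123 to 958 and 841 to 3870 were called in those fits. The members' median log2 fold change was -3.06, -3.33 and, for any virus, -2.89 in batch 1 alone. It was 1.81 and 1.24 for YAP5SA and MEF2A in batch 2 alone, 1.60, 1.41, 2.49 and 1.82 without Controls 1 and 2, and 0.73 for both viruses by limma-voom. Leaving out 1 library gave -2.37 to 1.00, -1.22 to 0.69, -1.88 to 1.43, -1.32 to 1.09 and -1.79 to 0.57.

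Without Controls 1 and 2, members called were 22, 6, 18, 23 and 3 by DESeq2, 1, 0, 1, 0 and 0 with no batch term, and 3 for any virus and 8 for YAP5SA against MEF2A by library totals. All of these were higher. Of 17855 genes, 1696, 93, 376, 545 and 2719 rose by DESeq2 and 1037, 1, 318, 197 and 1989 with no batch term. By library totals 56 rose for any virus and 3595 for YAP5SA against MEF2A. Leaving out 1 more library gave 0 to 16, 0 to 3, 1 to 10, 0 to 13 and 0 to 6 members called. Of all genes, 57 to 1776, 0 to 12, 38 to 161, 22 to 352 and 475 to 2684 rose in those fits. In YAP5SA against MEF2A, 381 to 2588 genes fell.

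All genes called, 1773, 3, 244, 392 and 2679, were 2951, 84, 814 and 1288 by DESeq2 in the 4 comparisons against Control, and 358, 934 and 1233 with no filter for MEF2A, both viruses and any virus. For MEF2A they were 0 under size-factor (RLE) scaling, library totals, a minimum count of 30, limma-voom, no batch term or removal of mitochondrially encoded genes, 482 in batch 1 alone and 22 in batch 2 alone. For both viruses they were 412 by library totals, 388 by limma-voom, 470 with no batch term, 1395 in batch 1 alone and 138 without Controls 1 and 2. For any virus they were 1919 in batch 1 alone and 161 without Controls 1 and 2, and for YAP5SA against MEF2A 1605 by library totals and 667 in batch 1 alone. Leaving out 1 library gave 544 to 2998, 0 to 101, 89 to 361, 123 to 958 and 841 to 3870. With a replicate block in place of batch, 938, 0, 187, 190 and 1573 genes and 0 members were called. The numbers do not pair the libraries: deviations of same-numbered libraries correlated at -0.18 to 0.09.

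In YAP5SA against Control, Iigp1 changed sign to 0.43 by limma-voom, 3.78 in batch 2 alone, 3.23 without Controls 1 and 2 and 3.07 without Control 2, the highest with 1 library left out, where the lowest was -5.33 without YAP5SA 3. Oasl2 changed sign to 1.11, 2.44, 2.87 and 1.95 under the same settings, and its lowest with 1 library left out was -2.95. H2-D1 changed sign to -0.26 with no batch term, -0.10 with the replicate block, -3.62 in batch 1 alone, and with 1 library left out ranged from -2.77 without YAP5SA 3 to 2.10 without Control 2. Without Controls 1 and 2, Eif2ak2, close to 0, changed sign to 0.0065 by DESeq2, 0.0068 by RLE scaling and 0.032 by limma-voom, and ranged from -0.23 to 0.15 with 1 more library left out. Genes of few counts, such as Cxcl10, Isg15 and Ifit3b, limit what these depths can show.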
